A study of Mus musculus with 12 samples.

Results

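Members of the Wnt signalling pathway were examined in mouse lung endothelial cells (MLECs) with and without endothelial deletion of the transcription factors Sp1 and Sp3. Members were protein-coding genes named as Wnt ligands, Frizzled receptors (Fzd), the co-receptors Lrp5 and Lrp6, R-spondins (Rspo) and their receptors Lgr4, Lgr5 and Lgr6. Antagonists were also members: the secreted Dkk and Sfrp families, Wif1, Frzb and Notum, and the membrane-bound Apcdd1. The rest were Axin1, Axin2, Lef1, Tcf7, Tcf7l1, Tcf7l2 and Ctnnb1, which encodes β-catenin. The expression table held 55 members among its 28689 rows, and Wnt8a and Dkk4 had no row. The study compared 6 libraries from dKO mice (VE-CAD-CreERT2+/Sp1 fl/fl/Sp3 fl/fl, tamoxifen) with 6 from CTR mice, which were Cre-negative Sp1 fl/fl/Sp3 fl/fl littermates given the same tamoxifen and are labelled WT. The mice were adults, and the Cre was driven by the VE-cadherin promoter. Cells were enriched from the lung with antibody-coated beads and cultured for a few passages, and nothing in the sources says which mice, or how many, stand behind a library.

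In canonical signalling, a Wnt ligand binds a Frizzled receptor together with Lrp5 or Lrp6, which frees β-catenin from a cytoplasmic complex built on Axin and lets it act in the nucleus with TCF/LEF factors. R-spondins strengthen this by protecting Frizzled receptors from removal, whereas Sfrp proteins bind the ligand and Dkk proteins bind Lrp5 and Lrp6. In endothelial cells the pathway is known for its part in vessel growth and barrier formation, and in the lung Wnt2 is known for its part in the development of the organ.

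Expression was given as FPKM, the fragments of a gene for each kilobase of its length and corrected for library size, and libraries held 15523054 to 17938286 fragments. Sp1 lay between 19.4 and 23.7 FPKM in CTR libraries and between 8.42 and 12.1 FPKM in dKO libraries, without overlap. Sp3 lay between 24.2 and 31.1 FPKM in CTR libraries and between 22.5 and 26.9 FPKM in dKO libraries, and its fall by 0.14 on the log2 scale did not pass the test (SE 0.07, adjusted p = 0.0902). The table gives 1 value over all exons of a gene, so it does not show whether the deleted part of Sp3 is missing. The paper reports less Sp1 and Sp3 protein in the aortic endothelium of dKO mice by immunofluorescence, which is another tissue than the one sequenced. A western blot panel of the paper also lists Sp1 and Sp3. Its legend names aortic endothelial cells and the text cites it for MLECs, without describing the level of either protein there. Below, dKO is the paper's name for these mice.

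Markers of several cell types were present. The endothelial markers Pecam1 (26.1 to 44.0 FPKM in CTR and 51.9 to 71.3 in dKO), Cdh5 (66.8 to 110.6 and 124.7 to 162.5) and Icam2 (3.61 to 7.55 and 9.85 to 16.6) were detected in every library. The fibroblast gene Col1a1 was far higher (1070.3 to 1267.2 FPKM in CTR and 394.8 to 684.9 in dKO), as was the macrophage gene Lyz2 (522.6 to 999.3 and 1336.2 to 2953.4), and the mesothelial gene Msln lay between 10.9 and 19.8 FPKM in CTR and between 19.9 and 74.5 in dKO. Marker levels moved with the genotype in several lists: 9 of 10 endothelial, 9 of 10 macrophage and 5 of 6 mesothelial markers tested were higher in dKO. The remaining macrophage marker was lower in dKO, and the remaining endothelial and mesothelial markers did not pass the test. Of 9 fibroblast markers, 3 were lower, 1 was higher and 5 did not pass the test. The lower ones were the collagen genes Col1a1, Col1a2 and Col3a1, and the higher one was Dcn (mean 6.82 FPKM in CTR and 17.75 in dKO). Sums of the smooth muscle and pericyte, lung epithelial and lymphatic endothelial lists overlapped between the groups, but single markers in them moved. Of 5 lymphatic endothelial markers tested, 3 were higher and 0 lower. Smooth muscle and pericyte markers had 2 of 9 higher and 1 lower, and lung epithelial markers 2 of 9 higher and 0 lower. Abundant genes weigh most in these sums, such as Lyve1 (mean 104.1 FPKM in CTR) and Acta2 (773.1). The macrophage count includes Fcgr1, which reached the filter in dKO libraries alone and was called also when genes were filtered on their mean over all libraries (adjusted p = 0.000232). In a bulk sample, fewer cells of a type and less RNA per cell cannot be told apart, and the part of these cell types in the results for the Wnt members was not tested. The extract protocol among the labels names retinas, whereas the tissue and cell type labels and the paper name lung endothelial cells.

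**Figure D1:**
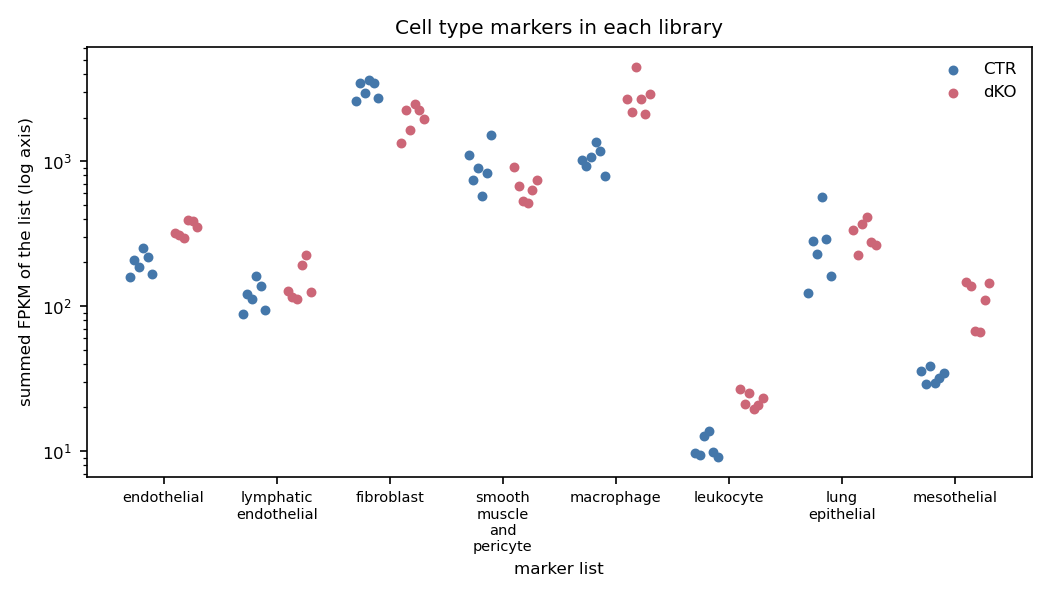
Summed FPKM of each cell type marker list (log axis) in the 6 CTR and 6 dKO libraries, 1 point per library. Endothelial sums ran from 158.3 to 252.7 in CTR and from 293.2 to 392.0 in dKO, macrophage sums from 793.9 to 1348.7 and from 2118.9 to 4494.3, mesothelial sums from 28.9 to 38.6 and from 66.4 to 146.1, and fibroblast sums from 2581.8 to 3653.0 and from 1325.1 to 2490.5. Fn1 and the collagen genes have the largest values in the fibroblast sums. Smooth muscle and pericyte, lung epithelial and lymphatic endothelial sums overlap between the groups.

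Sp1 and Sp3 are known to bind GC boxes, so the starts of the members were searched for GGGCGG and its complement CCGCCC on both strands, overlapping matches included. The search ran from 250 bases before to 50 bases after the annotated start (mouse build GRCm39). This start was that of 1 transcript per gene, the one Ensembl marks as canonical, and it can differ from the outer end of the gene. At least 1 GC box was found in 34 of 55 members (61.8%), against 8797 of 17366 protein-coding genes of the table (50.7%). Of the members that were higher in dKO in the comparison below, 7 of 8 had one (87.5%, against 56.6% of all protein-coding genes called higher), and of the members that were lower, 2 of 5 had one (40.0%, against 60.0%). Among the 14 tested members that were not called, 10 had one (71.4%), and among the 28 not tested, 15 had one (53.6%). Of all protein-coding genes tested, 59.6% had one. A match is a description of the letters and not of binding. The 150 bases before the start of Wnt2, Wnt9a, Wnt7a, Dkk2, Sfrp1 and Wnt4 are printed 5′ to 3′ in the direction of the gene, with GC boxes in capitals. All but Wnt4 are the tested members called with a change over 1.5-fold, and Wnt4 is a called ligand that was lower. Members under the expression filter, some with larger changes, are not printed.
Wnt2, chr6:18031893-18032042, minus strand: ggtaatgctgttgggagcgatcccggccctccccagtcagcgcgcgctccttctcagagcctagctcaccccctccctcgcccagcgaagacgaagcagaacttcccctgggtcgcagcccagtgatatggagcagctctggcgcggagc
Wnt9a, chr11:59197417-59197566, plus strand: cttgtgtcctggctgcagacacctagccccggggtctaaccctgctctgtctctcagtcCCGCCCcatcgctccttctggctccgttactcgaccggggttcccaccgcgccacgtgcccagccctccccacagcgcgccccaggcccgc
Wnt7a, chr6:91388461-91388610, minus strand: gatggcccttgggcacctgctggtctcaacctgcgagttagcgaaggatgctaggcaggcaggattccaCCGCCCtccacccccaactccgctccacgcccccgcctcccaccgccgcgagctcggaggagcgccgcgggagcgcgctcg
Dkk2, chr3:131790893-131791042, plus strand: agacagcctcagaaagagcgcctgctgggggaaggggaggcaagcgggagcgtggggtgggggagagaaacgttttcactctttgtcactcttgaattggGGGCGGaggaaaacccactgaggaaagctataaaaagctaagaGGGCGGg
Sfrp1, chr8:23901113-23901262, plus strand: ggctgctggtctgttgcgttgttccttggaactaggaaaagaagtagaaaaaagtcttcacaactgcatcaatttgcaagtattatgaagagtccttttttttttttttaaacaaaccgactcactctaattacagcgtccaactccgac
Wnt4, chr4:137004223-137004372, plus strand: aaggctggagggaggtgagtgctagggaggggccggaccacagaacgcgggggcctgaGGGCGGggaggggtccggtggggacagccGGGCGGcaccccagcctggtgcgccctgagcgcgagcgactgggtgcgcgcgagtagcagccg
The windows of Wnt2 and Sfrp1, which changed in opposite directions, held no GC box, also when the search ran to 250 bases before and 50 after the start. Those of Dkk2 and Wnt4, which also changed in opposite directions, held 2 each, and those of Wnt9a and Wnt7a held 1 each. Exons of a long noncoding RNA (Gm67799) and of a provisional gene model (Gm30437) on the other strand overlapped the Wnt7a window, and no annotated exon overlapped the other 5.

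The comparison of dKO with CTR tested each gene that reached 1 FPKM in 6 or more of the 12 libraries, which 27 members did and 28 did not. Of the 27, 8 were higher and 5 lower in dKO at an adjusted p under 0.05, which is 48.1%, while 53.1% of all 12467 genes tested were called (20.4% higher and 32.6% lower). The share of members called was therefore near that of all genes. A change over 1.5-fold as well was met by 5 members, 4 higher and 1 lower, or 18.5%, against 17.9% of all genes (8.92% higher and 8.98% lower). Both shares were taken on log2(FPKM + 1), which understates the changes of low genes. The study's text gives an absolute log2 fold change over 1.5 as its size, while the legend of its heatmap gives 1.5-fold. At the former, limma called 0 members and 1.98% of all genes, and 0 members also at an unadjusted p under 0.05. The study used DESeq2, so its counts are not directly comparable. Further, limma-voom was run on the fragments of all genes with a mean of at least 10 over the 12 libraries. At that log2 size it called 4 of 44 members, against 5.75% of the 14903 genes in that fit. These were Wnt2, with a log2 fold change of 1.64, and the low members Wnt9b, Wnt10a and Fzd10 described below. The median log2 fold change was 0.08 for the members tested and -0.10 for all genes tested. Only Wnt2 and Ctnnb1 of the 27 had groups without overlap, which 27.4% of all genes tested had (11.3% with dKO above, as both had).

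**Figure D2:**
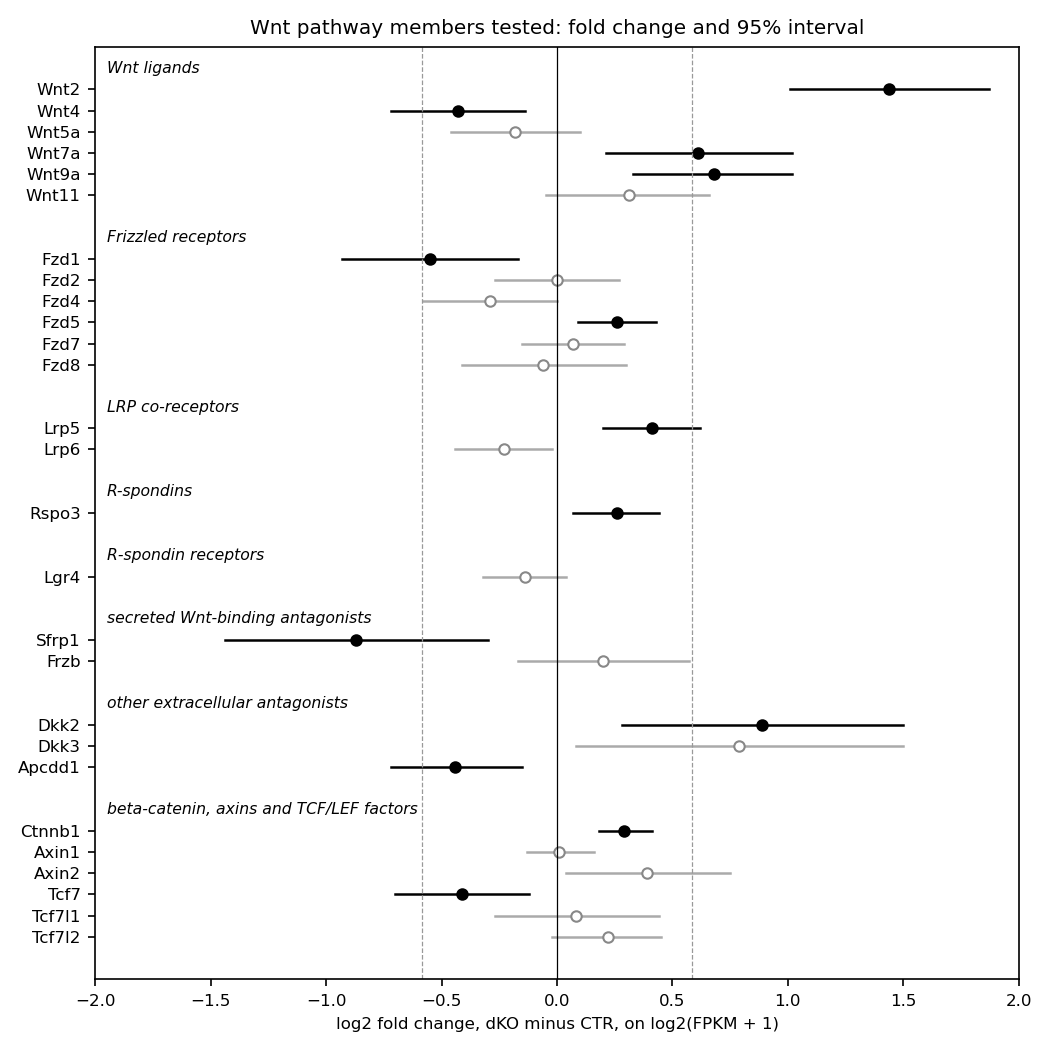
Log2 fold change (dKO minus CTR, on log2(FPKM + 1)) of the 27 members tested, grouped by role, with 95% intervals from limma as bars. Filled points have an adjusted p under 0.05 and open points do not, and dashed lines mark a 1.5-fold change. Wnt2 lies farthest to the right at 1.44 and Sfrp1 farthest to the left at -0.87.

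Among the ligands, 3 of the 6 tested were higher in dKO, 1 was lower and 2 did not pass the test. Wnt2, a ligand of the canonical branch in lung mesenchyme, had a lowest, median and highest level of 2.14, 4.95 and 6.50 FPKM in CTR libraries and of 9.45, 15.1 and 17.6 FPKM in dKO libraries. Each dKO library thus lay above each CTR library. On the log2 scale Wnt2 rose by 1.44 (SE 0.20, adjusted p = 7.53e-05, exact permutation p = 0.00216, the smallest that 6 against 6 allows), and the mean FPKM was 3.03 times that of CTR. The gene lies on the minus strand of chr6:17985468-18031892.

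Wnt9a, a ligand known from joint and skeletal development, had levels of 3.39, 3.64 and 6.28 FPKM (lowest, median, highest) in CTR and of 5.16, 6.28 and 9.89 FPKM in dKO. The groups overlapped through CTR6 alone, which stood at 6.28 FPKM while the other CTR libraries did not exceed 3.94. Wnt9a rose by 0.68 on the log2 scale (SE 0.16, adjusted p = 0.00324, exact permutation p = 0.00866). Without dKO1 it rose by 0.58, just under the 1.5-fold threshold on log2(FPKM + 1).

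Wnt7a, a ligand known from the nervous system and the brain vasculature, had levels of 0.597, 0.888 and 1.30 FPKM in CTR and of 1.09, 1.62 and 4.14 FPKM in dKO. The highest value belonged to dKO1, and 5 of 6 dKO libraries lay above all CTR libraries. Its log2 fold change was 0.61 (SE 0.19, adjusted p = 0.015, exact permutation p = 0.00433). This scale adds 1 to each FPKM and so shrinks the change of a gene this low. Over all libraries the mean FPKM was 2.24 times that of CTR, and limma-voom gave a log2 fold change of 1.05. Without dKO1 the value on log2(FPKM + 1) was 0.44, past the p threshold but short of the fold threshold on that scale. The fold threshold on that scale was also missed without CTR2, CTR5 or dKO2.

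Wnt4, a ligand known from kidney and female reproductive tract development, was the called ligand that fell. It lay at 1.77 ± 0.470 FPKM in CTR (SD, n = 6) and at 1.05 ± 0.326 FPKM in dKO, and 4 of 6 dKO libraries lay below all CTR libraries. Its log2 fold change was -0.43 (SE 0.13, adjusted p = 0.0165, exact permutation p = 0.0152), and the mean FPKM was 0.592 times that of CTR. The Wnt4 transcript holds a repeat of at most 171 bases that transcripts of other genes share at 95% identity or more, and reads from it cannot be placed with certainty. Wnt5a, a ligand of the β-catenin-independent branch, had 10.3 ± 1.82 FPKM in CTR and 9.04 ± 1.91 in dKO, with a log2 difference of -0.18 (95% interval -0.46 to 0.10, adjusted p = 0.256). Wnt11, of the same branch, had 1.24 ± 0.396 and 1.81 ± 0.791 FPKM, with a log2 difference of 0.31 (95% interval -0.05 to 0.66, adjusted p = 0.137).

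The mix of ligand transcripts therefore differed in rank. Wnt5a was the most abundant ligand in 6 of 6 CTR libraries, with 40.2% ± 3.78 of the summed ligand FPKM (SD, n = 6), and Wnt2 was second or lower with 18.9% ± 6.43. In dKO, Wnt2 was first in 6 of 6 libraries with 36.9% ± 6.03, and Wnt5a held 23.1% ± 2.52. Wnt9a held a like share in both groups, 15.7% ± 3.39 in CTR and 18.0% ± 2.42 in dKO. The summed FPKM of all 18 ligands in the table lay between 23.3 and 28.6 in CTR and between 29.1 and 52.3 in dKO, and the highest sum was that of dKO1.

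**Figure D3:**
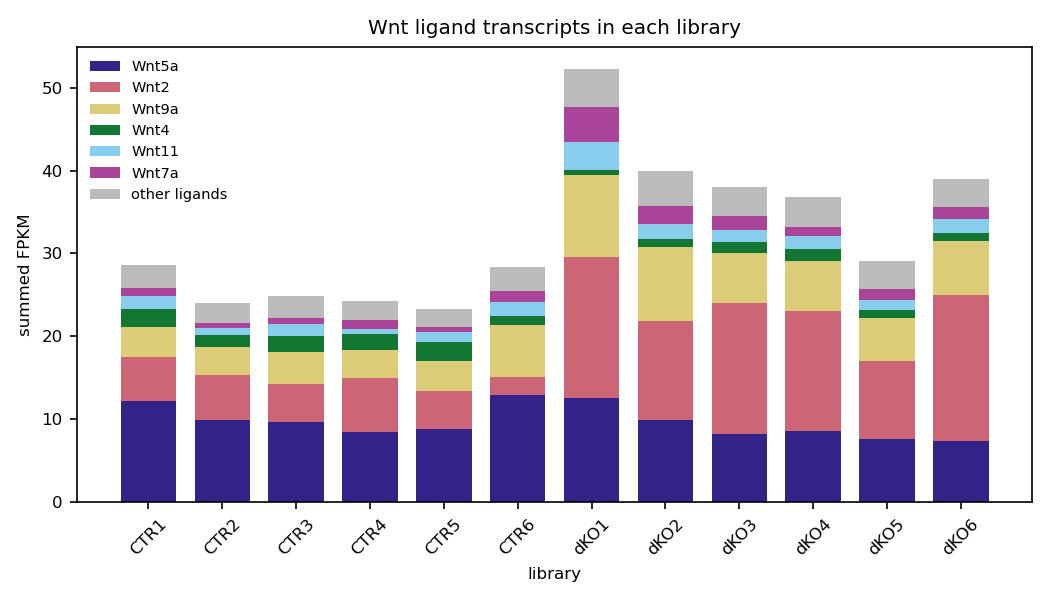
Summed FPKM of the 18 Wnt ligands in each of the 12 libraries as stacked bars, with the 6 tested ligands in their own colours and the other 12 in grey. In each CTR library the Wnt5a block is the tallest (8.47 to 13.0 FPKM), and in each dKO library the Wnt2 block is (9.45 to 17.6 FPKM).

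Of the 6 Frizzled receptors tested, 1 was higher, 1 was lower and 4 did not pass the test. Fzd1 was the most abundant Frizzled in every library, and its level was 42.8 ± 7.12 FPKM in CTR (SD, n = 6) and 29.5 ± 7.90 FPKM in dKO. It fell by 0.55 on the log2 scale (SE 0.17, adjusted p = 0.0182, exact permutation p = 0.0108), and 5 of 6 dKO libraries lay below all CTR libraries. Fzd5 rose from 1.54 ± 0.169 to 2.05 ± 0.300 FPKM, by 0.26 on the log2 scale (SE 0.08, adjusted p = 0.0156, exact permutation p = 0.00649). Fzd4, the receptor for norrin in retinal vessels, was at 18.5 ± 2.70 FPKM in CTR and 15.1 ± 3.26 in dKO, with a log2 difference of -0.29 (adjusted p = 0.0847). Fzd2, Fzd7 and Fzd8 had means of 11.6, 15.5 and 6.30 FPKM in CTR and of 11.7, 16.3 and 5.97 FPKM in dKO, with log2 differences between -0.06 and 0.07 and 95% intervals of -0.27 to 0.27 for Fzd2, -0.15 to 0.29 for Fzd7 and -0.41 to 0.30 for Fzd8.

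Of the LRP co-receptors, Lrp5 was called and Lrp6 was not. Lrp5 rose from 8.81 ± 0.935 to 12.1 ± 1.76 FPKM (SD, n = 6), by 0.41 on the log2 scale (SE 0.10, adjusted p = 0.00372, exact permutation p = 0.00649), and 5 of 6 dKO libraries lay above all CTR libraries. Lrp6 was at 13.0 ± 0.934 FPKM in CTR and 11.0 ± 1.83 in dKO, with a log2 difference of -0.23 (95% interval -0.44 to -0.02 before adjustment, adjusted p = 0.0668). Lrp6 was the more abundant of the pair in 6 of 6 CTR libraries, where it held 59.6% ± 1.98 of their summed FPKM. Lrp5 was the more abundant in 5 of 6 dKO libraries, where it held 52.3% ± 3.15.

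Among the R-spondins, Rspo3 passed the filter alone and held 95.5% ± 1.46 of their summed FPKM in CTR and 94.8% ± 0.792 in dKO (SD, n = 6). This ligand, known to be made by endothelial cells, rose from 27.9 ± 1.49 to 33.8 ± 4.57 FPKM (SD, n = 6), by 0.26 on the log2 scale (SE 0.09, adjusted p = 0.0215, exact permutation p = 0.0238). Of the R-spondin receptors, Lgr4 alone was tested, and it lay at 3.10 ± 0.387 and 2.72 ± 0.364 FPKM, with a log2 difference of -0.14 (95% interval -0.32 to 0.04, adjusted p = 0.18).

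Of the 5 extracellular antagonists tested, 1 was higher, 2 were lower and 2 did not pass the test. Sfrp1, a secreted Frizzled-related protein that binds Wnt ligands, had a lowest, median and highest level of 16.9, 22.5 and 26.0 FPKM in CTR and of 3.92, 14.2 and 17.4 FPKM in dKO. The groups overlapped through CTR6, the lowest CTR library, and dKO5, the highest dKO library, and dKO1 was the lowest of all. Sfrp1 fell by 0.87 on the log2 scale (SE 0.27, adjusted p = 0.0149, exact permutation p = 0.00433), and by 0.60 without dKO1. The same library had the lowest fibroblast marker sum, 1325.1 FPKM, in which Fn1 and the collagen genes had the largest values. Frzb, a related Wnt-binding protein, lay at 2.52 ± 0.855 and 3.03 ± 0.861 FPKM (SD, n = 6; log2 difference 0.20, 95% interval -0.17 to 0.57, adjusted p = 0.341).

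Dkk2, a Dickkopf protein that binds Lrp5 and Lrp6, had levels of 0.278, 1.72 and 2.85 FPKM in CTR and of 2.36, 3.35 and 7.08 FPKM in dKO. Of the dKO libraries, 2 lay inside the CTR range and 4 above it. Dkk2 rose by 0.89 on the log2 scale (SE 0.28, adjusted p = 0.0181, exact permutation p = 0.0152), and its adjusted p was 0.051 with no filter and a pseudocount of 0.1. Dkk3, a divergent member of the Dickkopf family, was the most abundant antagonist, with 70.4 ± 28.9 FPKM in CTR (SD, n = 6) and 122.1 ± 42.8 in dKO. Its log2 difference of 0.79 did not pass the test (SE 0.33, adjusted p = 0.0571), and the spread was wide, with CTR6 at 32.2 FPKM, dKO1 at 46.7 FPKM and the other dKO libraries between 110.7 and 176.5 FPKM. Apcdd1, a membrane-bound Wnt inhibitor, fell from 5.59 ± 1.21 to 3.82 ± 0.631 FPKM, by 0.44 on the log2 scale (SE 0.13, adjusted p = 0.0141, exact permutation p = 0.0195).

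**Figure D4:**
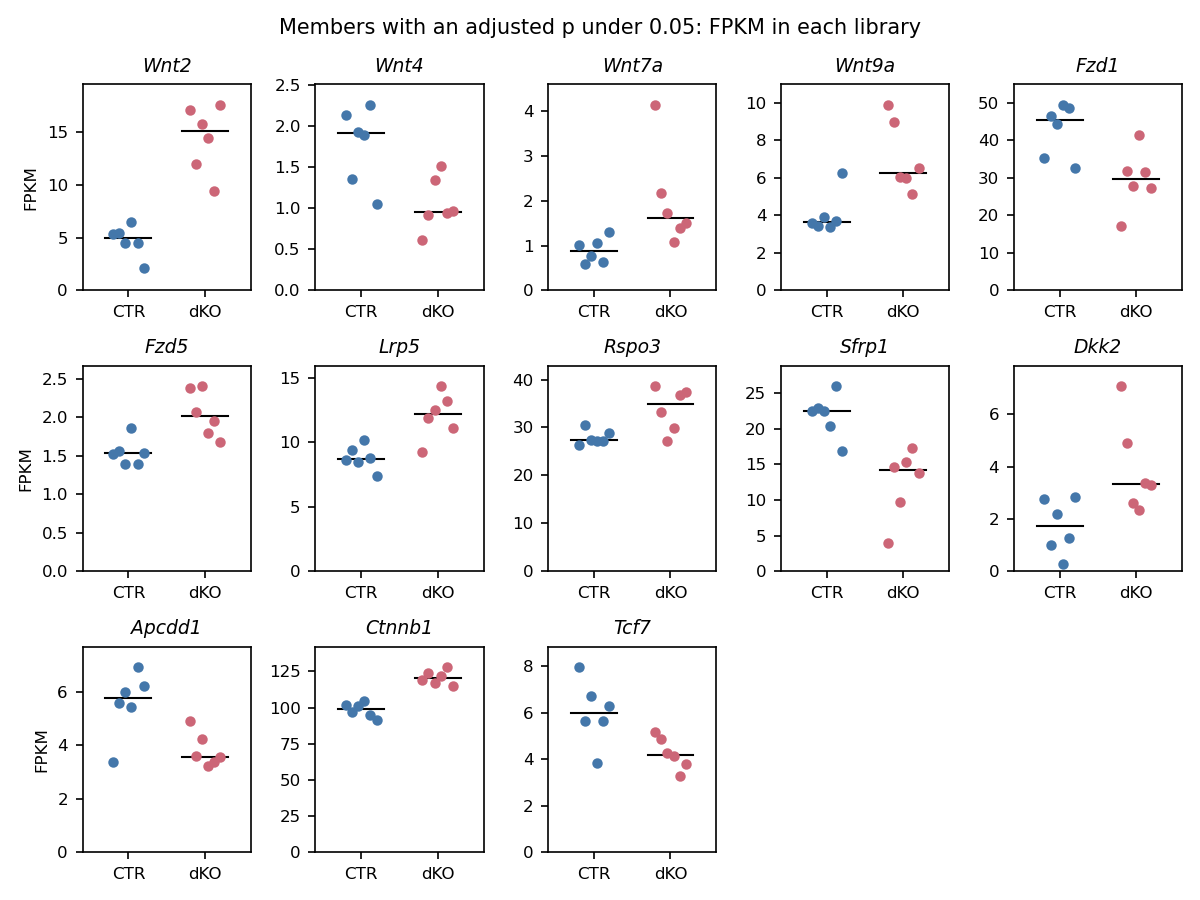
FPKM of the 13 called members in each library (axes from 0), with CTR and dKO replicates 1 to 6 from left to right within each group and the group median as a line. The groups of Wnt2 and Ctnnb1 do not overlap, while dKO1 is the highest library for Wnt7a, at 4.14 FPKM, and the lowest for Sfrp1, at 3.92 FPKM.

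Of the 6 tested genes downstream of the receptors, 1 was higher, 1 was lower and 4 did not pass the test. Ctnnb1 was the most abundant of them, and its lowest, median and highest levels were 91.3, 99.0 and 104.4 FPKM in CTR and 114.7, 120.4 and 128.0 FPKM in dKO. The groups did not overlap. Ctnnb1 rose by 0.29 on the log2 scale (SE 0.05, adjusted p = 0.000645, exact permutation p = 0.00216), a change of 22.6% in the mean. Tcf7, a TCF/LEF factor, fell from 6.02 ± 1.36 to 4.24 ± 0.692 FPKM (SD, n = 6), by 0.41 on the log2 scale (SE 0.13, adjusted p = 0.0211, exact permutation p = 0.0216), and its adjusted p was 0.0578 with quantile normalization. Axin2, a scaffold of the destruction complex and itself a widely used readout of β-catenin activity, had 2.18 ± 0.827 FPKM in CTR and 3.12 ± 0.690 in dKO, with a log2 difference of 0.39 (95% interval 0.04 to 0.75 before adjustment, adjusted p = 0.0574). Axin1 (11.6 ± 0.625 and 11.7 ± 1.22 FPKM), Tcf7l1 (4.34 ± 1.53 and 4.53 ± 0.845) and Tcf7l2 (1.84 ± 0.472 and 2.27 ± 0.264) had log2 differences of 0.01, 0.08 and 0.22.

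The 28 members under the filter were examined by the fragments behind their FPKM. Of these, 17 had a mean of at least 10 fragments over the 12 libraries, a filter that does not look at the groups, and were tested with limma-voom on fragments. It called 9 of the 17 (52.9%), 6 higher and 3 lower, against 44.6% of the 2610 genes in the same position (19.2% higher and 25.5% lower). Groups without overlap were found for 3 of the 28. The share of all low genes without overlap was not taken, so this count has nothing to be set against.

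The ligand Wnt9b lay between 0.0535 and 0.288 FPKM in CTR and between 0.314 and 1.27 in dKO, without overlap, and rose by 2.35 on the log2 scale (SE 0.42, adjusted p = 0.000449 by limma-voom). Wnt10a rose by 1.77 (0.0696 to 0.318 FPKM in CTR and 0.294 to 0.679 in dKO, adjusted p = 0.00187), and Wnt7b by 0.94 (0.201 to 0.626 and 0.543 to 1.34 FPKM, adjusted p = 0.0159). All of these are classed with canonical ligands, and all remained far below Wnt2 in level. Wnt5b fell by 0.53 (0.580 to 1.07 and 0.429 to 0.609 FPKM, adjusted p = 0.038), but its locus overlaps Fbxl14 on the other strand, which reached 13.1 FPKM, and the strand setting of the counting is not given in the sources used here.

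Among the low receptors, Fzd10 rose by 1.83 (0.0362 to 0.130 FPKM in CTR and 0.204 to 0.555 in dKO, adjusted p = 0.000705 by limma-voom) and Fzd6 by 0.96 (0.582 to 0.966 and 0.776 to 1.70 FPKM, adjusted p = 0.00143). Fzd10 shares its locus with the antisense RNA Fzd10os, which reached 0.24 FPKM, so reads of the 2 may be mixed. Fzd3, known from planar polarity and axon guidance, fell by 0.65 (0.986 to 1.17 and 0.526 to 0.834 FPKM, adjusted p = 0.000423), and its groups did not overlap. Rspo1 rose by 0.87 (0.336 to 1.12 and 0.734 to 1.55 FPKM, adjusted p = 0.0254). Lgr5, a stem cell marker in the gut, fell by 1.24 from a level near 0 (12 to 19 fragments per CTR library and 3 to 16 per dKO library, adjusted p = 0.0047).

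**Figure D5:**
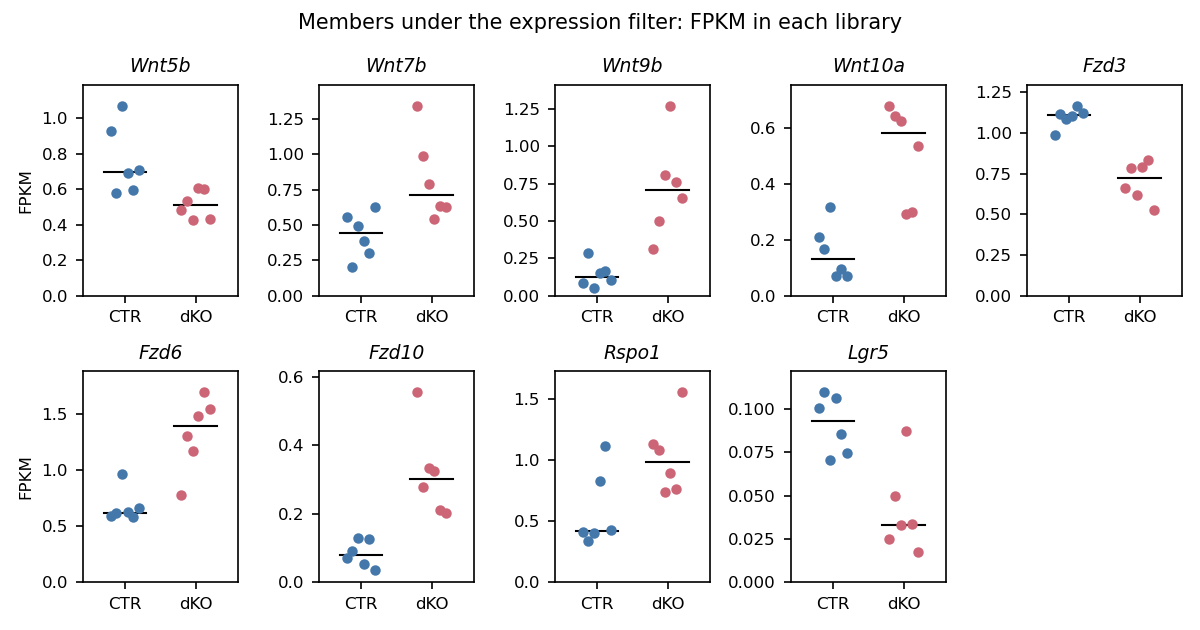
FPKM of the 9 members under the expression filter that limma-voom called, in each library (axes from 0), with CTR and dKO replicates 1 to 6 from left to right and the group median as a line. Wnt9b, Fzd10 and Fzd3 have groups without overlap, and no value exceeds 1.70 FPKM.

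The other 8 of the 17 were not called. Their highest libraries were at 0.863 FPKM for Wnt2b, 0.871 for Wnt10b, 0.956 for Rspo4, 0.404 for Lgr6, 0.880 for Sfrp2, 0.547 for Notum and 0.196 for Lef1. The last of the 8, Rspo2, was read by 10 to 30 fragments in 5 CTR libraries, by 1 in CTR6 and by 3 to 7 in dKO libraries, so that 5 of 6 CTR libraries lay above all dKO libraries. Its log2 difference was -1.12 (SE 0.67, adjusted p = 0.174 by limma-voom), and the exact permutation test on its FPKM gave p = 0.0346, not adjusted. The remaining 11 members had a mean below 10 fragments and were not tested. The highest library was at 0.341 FPKM for Fzd9, at 0.204 for Wnt6, 0.110 for Sfrp4 and 0.102 for Wnt16, and below 0.1 for Wnt1, Wnt3, Wnt3a, Wnt8b, Sfrp5, Wif1 and Dkk1. Wif1 was read by 1 fragment in all 12 libraries together. Of the TCF/LEF factors, Lef1 was thus near the floor in both groups, and of the classical canonical ligands, Wnt1, Wnt3 and Wnt3a were not above 4 fragments in any library.

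Of the pathway genes outside these families, 11 of 58 tested were higher and 18 lower in dKO, which is near the 20.4% and 32.6% of all genes tested, and their median log2 difference was -0.08. With median-of-ratios scaling 13 were higher and 10 lower, while for all genes the share of calls that were higher went from 38.5% to 51.7%. Porcn, which attaches the lipid that ligands need for secretion, fell from 15.3 ± 7.19 to 5.50 ± 2.59 FPKM (SD, n = 6), by 1.31 on the log2 scale (SE 0.36, adjusted p = 0.00913). Wls, which carries ligands to the surface, was at 25.7 ± 2.24 and 28.0 ± 2.20 FPKM (log2 difference 0.12, adjusted p = 0.185).

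Among co-receptors and regulators of receptor turnover, 3 of 9 were higher and 4 lower. Adgra2 (Gpr124), the Wnt7 co-receptor of brain vessels, fell from 69.8 ± 9.52 to 39.1 ± 3.17 FPKM, by 0.81 on the log2 scale (SE 0.09, adjusted p = 1.59e-05), opposite to Wnt7a. Its partner Reck was at 5.20 ± 0.982 and 5.37 ± 1.00 FPKM (adjusted p = 0.805). Tspan12, a partner of Fzd4, rose by 0.66 (adjusted p = 0.0006), Kremen1, a Dickkopf receptor, by 0.24 (adjusted p = 0.00129) and Ror1, a receptor of the β-catenin-independent branch, by 0.44 (adjusted p = 0.0164). Ror2 and Ryk, receptors of the same branch, fell by 0.28 and 0.35 (adjusted p = 0.0361 and 0.0359).

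Of 16 cytoplasmic proteins, 1 was higher and 6 were lower. The higher one, Apc2, reached the filter in 6 dKO libraries and 0 CTR libraries, so it was also tested with genes filtered on their mean over all libraries, where it rose by 0.76 on the log2 scale (0.708 ± 0.165 to 1.90 ± 0.253 FPKM, SD, n = 6; adjusted p = 1.93e-05 by limma). Nkd1, a Dishevelled-binding inhibitor, fell by 0.76 (6.58 ± 0.786 to 3.52 ± 0.839 FPKM, adjusted p = 0.000176). The kinase Csnk1d fell by 0.34 (adjusted p = 0.0002) and Amer1 by 0.36 (adjusted p = 0.0078). Of 10 nuclear cofactors, 8 did not pass the test, and the co-repressors Tle1 and Tle3 fell by 0.59 and 0.14 (adjusted p = 3e-05 and 0.044). Of 5 planar polarity genes, Prickle1, Vangl2 and Vangl1 fell by 0.62, 0.39 and 0.24 (adjusted p = 0.000831, 0.00309 and 0.0124), and Prickle2 rose by 0.35 (adjusted p = 0.0256).

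Genes widely used as readouts of β-catenin did not share a direction. Of 11 tested, 3 were higher and 3 were lower. Cd44 rose from 28.7 ± 7.41 to 62.5 ± 14.9 FPKM, by 1.10 on the log2 scale (SE 0.18, adjusted p = 0.00023), and Sox9 rose by 0.40 (adjusted p = 0.00695). Nkd1, given above, and Tnfrsf19 were lower, the latter by 0.59 (adjusted p = 0.00193). Cd44 is also abundant in macrophages, most of whose markers were higher in the same libraries. The part of macrophages in its rise was not tested. Of 7 tested genes known to respond to β-catenin in endothelial cells, Cldn5 and Sox17 rose by 0.83 and 0.28 (adjusted p = 0.00094 and 0.0491). Plvap, which β-catenin is known to repress in brain vessels, rose as well, by 0.48 (adjusted p = 0.01). The other 4 did not pass the test. These changes stood beside a median of 0.83 over the 10 endothelial markers.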

How the data were processed

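RNA-seq was done on MLECs with 6 CTR and 6 dKO libraries. Per the paper's methods, the authors trimmed 150 bp paired-end reads, mapped them with STAR to mm39 and re-aligned the uniquely mapped reads. The submitters' processing notes name Bowtie2 2.2.3, HISAT2 2.1.0, TopHat2 and DESeq2. The counting program, annotation and strand setting are not given in the sources used here. The authors deposited FPKM values. Columns named after tamoxifen, which both groups received, were taken as dKO because the control columns are named as such.

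Members were matched through Ensembl identifiers to GENCODE vM39. Members and gene lists were chosen with earlier results of these data known. The test was limma 3.58.1 (R 4.3.3; lmFit, eBayes with a trend) on log2(FPKM + 1), with Benjamini-Hochberg adjustment over the 12467 genes that reached 1 FPKM in 6 or more libraries. Fold changes on this scale understate those of low genes. Permutation tests were exact and two-sided, over the 924 splits into groups of 6. Whole fragments were recovered for all 28689 genes (tolerance 0.002 fragments) and used for depth and for limma-voom with a minimum mean of 10 fragments, chosen after seeing the data. No library repeated another. The paper describes its replicates in general as biological, but nothing ties these libraries to separate mice; where they share mice, p-values measure only the spread between libraries. On simulated data for this comparison (12577 genes tested), 200 of 200 changed genes with a log2 fold change of 1.5 and 14 of 12377 unchanged genes were called. The simulation gave all genes the same dispersion and changed only these 200, all above a floor of mean expression. It checks the fit and does not give the power for smaller changes, or the error rate where libraries spread more widely.

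Members with an adjusted p under 0.05 and over 1.5-fold are described by library, other members by mean or range, and up to 4 genes of each other list by the smallest adjusted p, to which Wls, Reck, Ror2 and Ryk were added after their values were seen. Alternatives were other pseudocounts, filters and scalings, limma-voom, a replicate block and leaving out each library. The result for 1 marker gene is not reported here.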

Additional observations from a re-analysis of the deposited data

Results flagged for a closer look

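Of 58 groups of 6 libraries examined (27 members, Sp1 and Sp3), 4 held a library far from its group, where chance gives about 2.9. Wnt7a stood at 4.14 FPKM in dKO replicate 1, while the other dKO libraries lay between 1.09 and 2.18. Wnt11 stood at 3.36 FPKM in the same library, with the others between 1.15 and 1.78. Wnt9a stood at 6.28 FPKM in CTR replicate 6, with the other CTR libraries between 3.39 and 3.94. Lgr4 stood at 3.80 FPKM in CTR replicate 1, with the others between 2.79 and 3.17.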

How the results depend on the processing

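Of the 13 called members, 11 kept direction and call in all of up to 25 alternatives, and Dkk2 and Tcf7 each lost the call in 1 of them. None of the 13 changed sign in any of these fits. The number of called members was 20 with no filter, 20 after rescaling to TPM, 8 when 6 libraries had to reach 5 FPKM and 23 with limma-voom on genes with at least 10 fragments in at least 6 libraries, and also with a mean of at least 10 fragments, both chosen after seeing the data. These settings tested 55, 38, 16, 43 and 44 members in place of 27. The number over 1.5-fold was 11 with no filter and a pseudocount of 0.1, 10 after rescaling to TPM, 3 with the filter of 5 FPKM and 14 with each of these limma-voom fits, against 5. Leaving out each library in turn gave 13 to 16 called members, 4 to 6 over 1.5-fold, and 22 to 28 of the other pathway genes, and Sp3 had log2 differences of -0.18 to -0.11, with an adjusted p of 0.0328 without CTR replicate 6. Of the tested members that were not called, 5 gained a call in at least 1 setting: Axin2 in 8 (adjusted p 0.00666 to 0.121 over its alternatives), Dkk3 in 4, Tcf7l2 in 3, and Fzd4 and Lrp6 in 2 each. The replicate numbers were not taken to pair the samples. Deviations of same-numbered libraries correlated between -0.11 and 0.57, and 2 of 6 CTR libraries were most alike to their own number. So few libraries cannot exclude a pairing. With the replicate block 17 members were called, 6 of them over 1.5-fold, and 28 of the other pathway genes. The search 250 bases before the start found a GC box in 32 members in place of 34. The 11 members with a mean below 10 fragments were not tested for lack of depth.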
